A study of Ovis aries with 40 samples.

Results

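Platelet-derived growth factor (PDGF) ligands and receptors were followed in RNA-seq of developing sheep lung. The members were chosen by symbol, the ligand genes PDGFA, PDGFB, PDGFC and PDGFD and the receptor genes PDGFRA and PDGFRB, 6 in all. Of these, 5 were found among the 24478 genes of the count tables, and all 5 passed the filter on low counts in every fit. PDGFA was not analysed here. In the Oar_v4.0 annotation, PDGFB lay on chromosome 3 (214399998 to 214420846, minus strand), PDGFC on chromosome 17 (42062311 to 42190890, plus strand) and PDGFD on chromosome 15 (3852935 to 4137382, plus strand). PDGFRA lay on chromosome 6 (69641635 to 69690085, plus strand) and PDGFRB on chromosome 5 (58903652 to 58940373, minus strand). No exon of these genes overlapped an exon of another annotated gene, although the spans of PDGFC, PDGFD and PDGFRA held other genes.

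PDGFs are secreted dimers that bind and join receptor tyrosine kinases on mesenchymal cells. PDGFB is best known as an endothelial signal that draws pericytes, the contractile cells on capillaries, through PDGFRB, while PDGFRA marks lung fibroblasts and the precursors of the alveolar myofibroblasts that raise septa. PDGFC and PDGFD are made with an N-terminal CUB domain and are inactive until a protease removes it, PDGFC then acting mainly on PDGFRA and PDGFD mainly on PDGFRB.

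Proximal and distal lung was taken from wild-type (WT) and CFTR-/- (CF) sheep of the American Romney breed at gestational days 65, 80, 100 and 120, and again at term (day 147), with 2 libraries in each of 20 conditions and 40 in all. WT animals were bred naturally and WT term lambs were born naturally, whereas all CF animals were cloned by somatic cell nuclear transfer from 1 male line of fetal fibroblasts with CFTR exon 2 targeted. Proximal and distal samples came from the same animals. Genotype and cloning cannot be told apart, nor, before term, can sequencing depth. The 16 WT libraries before term held 24670355 to 43700012 counts and the 16 CF libraries before term 85773994 to 103139483. The 8 term libraries held 115937437 to 126749480. Depth thus rose to term, more in WT than in CF, so a change at term cannot be told apart from that step. CFTR itself ran from 9.58 to 43.8 CPM (gene counts scaled to library size with TMM factors) in WT and from 3.65 to 34.9 CPM in CF libraries, and both CF libraries lay below both WT libraries in 10 of 10 region and time pairs.

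Some labels and libraries stood apart. The WT day 100 replicates carried the same animal label, and a WT day 65 replicate shared its label with a CF day 100 replicate, so p-values measure the spread between these libraries, some of which may be technical. The libraries of CF proximal lung at day 120 were the least alike of the 20 pairs, with a chi-square of 1850 per gene, and differed by 5.24-fold in PDGFRB. Their endothelial markers summed to 2952 CPM in replicate 1 and 2076 in replicate 2, their pericyte markers to 1131 and 701 CPM, and their cartilage markers to 49.1 and 165. The labels call the tissue epithelial, but 10 epithelial markers summed to 604 to 3752 CPM while 12 fibroblast markers summed to 4412 to 25870 CPM. In such bulk tissue, fewer cells of a type and less RNA per cell cannot be told apart.

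All 5 genes were well expressed. Levels were given as CPM, and as CPM per kilobase of exon where genes were compared. Averaged over 40 libraries, PDGFRB was the highest at 43.5 CPM per kb, above 91.8% of the 20779 genes kept. PDGFRA at 22.0 and PDGFB at 19.4 CPM per kb followed, then PDGFD at 13.7, and PDGFC was lowest at 2.24, above 42.9% of genes. The smallest single count was 223, for PDGFC, so no value rested on very few counts. In close pairs, such as 1.01-fold for PDGFC in WT proximal lung at day 120, counting error may make up much of the spread. The ratio of the higher to the lower library of a pair had a median from 1.14 for PDGFB to 1.23 for PDGFRA.

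**Figure D1:**
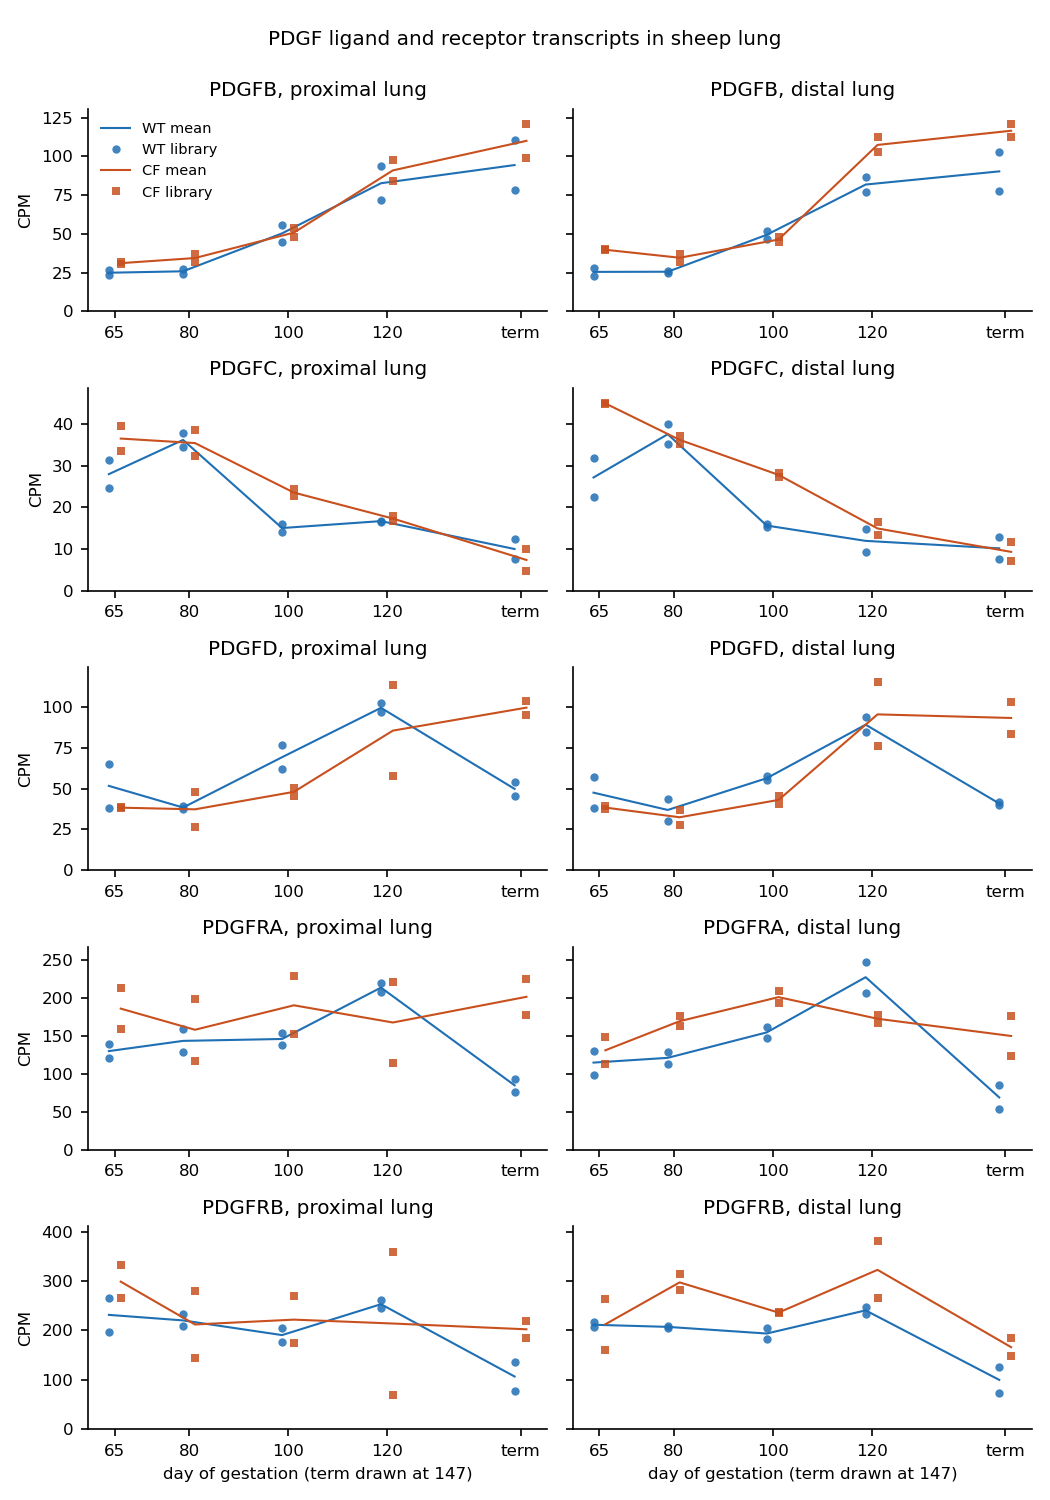
Transcript level of each member (vertical axis, CPM from 0) against day of gestation, with term drawn at 147, in proximal (left) and distal (right) lung. Points are single libraries (2 per condition, circles WT, squares CF), lines join means, and the term libraries of PDGFD, PDGFRA and PDGFRB sit higher in CF than in WT.

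PDGFB rose before birth in both genotypes and both regions and stayed high at term. In WT proximal lung the libraries held 23.2 and 26.7 CPM at day 65, 24.3 and 27.4 at day 80, 44.6 and 56.0 at day 100, 93.8 and 71.6 at day 120 and 111 and 78.3 at term. In WT distal lung they held 23.0 and 27.9, 26.3 and 24.9, 52.1 and 46.7, 86.5 and 77.2 and 103 and 77.8 CPM at the same times. Both WT courses therefore had a low plateau at days 65 and 80 and separate, higher values at days 100 and 120, with day 120 and term overlapping.

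CF proximal lung held 31.7 and 30.6 CPM of PDGFB at day 65, 36.9 and 31.9 at day 80, 47.9 and 53.8 at day 100, 97.9 and 84.1 at day 120 and 121 and 98.9 at term. CF distal lung held 39.4 and 40.1, 32.0 and 37.2, 48.1 and 44.7, 103 and 112 and 113 and 121 CPM. The order of means was term, day 120, day 100 and then the earliest days in each of the 4 courses, and no neighbouring time points overlapped in either CF course.

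Between day 65 and day 120 PDGFB rose 3.30-fold in WT proximal (log2 fold change 1.72, SE 0.21, adjusted p = 0.000652) and 3.18-fold in WT distal lung (log2 fold change 1.67, SE 0.16, adjusted p = 0.000443). The rise was 3.02-fold in CF proximal (log2 fold change 1.59, SE 0.24, adjusted p = 0.0261) and 2.77-fold in CF distal lung (log2 fold change 1.47, SE 0.16, adjusted p = 0.00147). These tests were made with edgeR's quasi-likelihood method, with p-values adjusted over all genes, as were those that follow. The CF proximal call was lost in 6 of 10 fits that left out a single library, with values from 1.48 to 1.70 and an adjusted p of 0.329 without CF proximal day 65 replicate 2, and with the replicate number as a block (adjusted p = 0.0601). Of the single intervals, day 80 to day 100 in WT distal (log2 fold change 0.95, SE 0.16, adjusted p = 0.035) and day 100 to day 120 in CF distal lung (log2 fold change 1.23, SE 0.16, adjusted p = 0.0166) passed the test. The day 80 to day 100 value of WT proximal lung was alike in size (log2 fold change 0.94, SE 0.21, adjusted p = 0.0575) and passed with DESeq2 (adjusted p = 0.000905) and without the filter on low counts (adjusted p = 0.027). From day 100 to day 120 the WT values were 0.73 in both regions (adjusted p = 0.108 in proximal and 0.0512 in distal lung). Both passed with DESeq2 (adjusted p = 0.0212 and 0.00304). These passes, and those of WT proximal lung from day 80 to day 100, counted the WT day 100 libraries of 1 animal label as 2. With those libraries summed edgeR called none of these values. The WT distal call was lost in 6 of 10 such fits (adjusted p = 0.352 without WT distal day 80 replicate 2) and with the WT day 100 libraries, which share an animal label, summed to 1 (adjusted p = 0.3). The CF distal call was lost in 3 of 10 (adjusted p = 0.288 without CF distal day 100 replicate 2, 0.226 without replicate 1 and 0.0507 without day 80 replicate 2). From day 120 to term the changes were 0.19, 0.12, 0.24 and 0.11 on the log2 scale in WT proximal, WT distal, CF proximal and CF distal lung, and none passed.

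PDGFC, whose product needs cleavage before it binds PDGFRA, declined over gestation. WT proximal lung held 31.4 and 24.6 CPM at day 65, 38.0 and 34.5 at day 80, 14.1 and 16.0 at day 100, 16.8 and 16.6 at day 120 and 7.56 and 12.5 at term. WT distal lung held 32.0 and 22.4, 39.9 and 35.2, 16.1 and 15.2, 9.21 and 14.8 and 7.55 and 12.8 CPM. The highest WT level was thus at day 80 and the lowest at term, with a step down between days 80 and 100 in which no libraries overlapped.

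CF proximal lung held 39.5 and 33.6 CPM of PDGFC at day 65, 38.6 and 32.4 at day 80, 22.8 and 24.4 at day 100, 16.8 and 17.9 at day 120 and 10.02 and 4.78 at term. CF distal lung held 45.1 and 44.9, 37.1 and 35.4, 27.3 and 28.3, 16.5 and 13.4 and 11.6 and 7.08 CPM. In CF the means declined from each time point to the next in both regions, and in distal lung without overlap. The step from day 80 to day 100 passed in WT proximal lung (log2 fold change -1.28, SE 0.24, adjusted p = 0.0339) and gave a log2 fold change of -1.27, SE 0.31, adjusted p = 0.12 in WT distal lung, where DESeq2 gave an adjusted p of 0.00454. The WT proximal call was lost with the replicate number as a block (adjusted p = 0.0573) and in 6 of 10 fits without a single library (adjusted p = 0.188 without day 80 replicate 1). It was also lost with the WT day 100 libraries of 1 animal label summed (adjusted p = 0.192). Over the longer interval to day 120, PDGFC fell 2.28-fold in WT distal (log2 fold change -1.19, SE 0.31, adjusted p = 0.0306) and 2.92-fold in CF distal lung (log2 fold change -1.55, SE 0.27, adjusted p = 0.00755), while the WT distal call was lost in 6 of 10 fits (-0.89, adjusted p = 0.187 without day 120 replicate 1) and with the WT day 100 libraries summed (adjusted p = 0.0583). The proximal values were -0.75 (adjusted p = 0.0561) in WT and -1.03 (adjusted p = 0.228) in CF. From day 120 to term the values were -0.74 (adjusted p = 0.0516) in WT proximal, -1.26 (0.187) in CF proximal and -0.69 (0.0841) in CF distal lung. DESeq2 called the WT proximal (adjusted p = 0.0161) and CF proximal (0.034) values but not that of CF distal lung. In WT distal lung neither method called PDGFC at that interval.

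PDGFD, the other cleaved ligand, was high at day 120 in all 4 courses. WT proximal lung held 65.1 and 38.4 CPM at day 65, 39.6 and 37.3 at day 80, 76.6 and 62.1 at day 100, 97.0 and 102 at day 120 and 45.8 and 54.0 at term. WT distal lung held 57.3 and 37.9, 43.8 and 30.2, 55.3 and 57.6, 94.0 and 84.6 and 42.2 and 39.7 CPM. Day 120 stood above every other WT time point in both regions, and the term values were back among those of days 65 and 80.

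CF proximal lung held 38.1 and 38.7 CPM of PDGFD at day 65, 26.5 and 48.2 at day 80, 50.6 and 45.6 at day 100, 113 and 57.9 at day 120 and 95.5 and 104 at term. CF distal lung held 39.2 and 37.7, 27.8 and 37.1, 40.7 and 45.6, 115 and 76.0 and 83.5 and 103 CPM. In CF the day 120 and term libraries overlapped in both regions, and all 8 lay above the day 65 to 100 libraries of their own region.

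From day 65 to day 120 PDGFD rose 1.92-fold in WT proximal (log2 fold change 0.94, SE 0.22, adjusted p = 0.0152), 1.86-fold in WT distal (log2 fold change 0.89, SE 0.22, adjusted p = 0.0237) and 2.57-fold in CF distal lung (log2 fold change 1.36, SE 0.25, adjusted p = 0.00971). The CF proximal value was 1.2 (adjusted p = 0.181). The WT calls were lost without day 65 replicate 2 (0.62 in both regions, adjusted p = 0.0534 in proximal and 0.116 in distal lung), day 120 replicate 1 (0.0649 and 0.117) or day 120 replicate 2 (0.0668 and 0.0649), and the CF distal call without day 65 replicate 1 (0.0545) or replicate 2 (0.0744). From day 120 to term PDGFD fell 2.00-fold in WT proximal (log2 fold change -1.0, SE 0.22, adjusted p = 0.0103) and 2.21-fold in WT distal lung (log2 fold change -1.14, SE 0.22, adjusted p = 0.00735), whereas the CF values were 0.19 (95% interval -0.68 to 1.06) and -0.05 (-0.60 to 0.50) in proximal and distal lung. The CF proximal value was -0.22 (adjusted p = 0.715) without day 120 replicate 2 and 0.75 without replicate 1. The WT proximal fall had an adjusted p of 0.0576 without day 120 replicate 2 and of 0.0565 without term replicate 1.

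PDGFB took a growing share of the ligand transcripts. Among PDGFB, PDGFC and PDGFD in CPM per kb, PDGFB made up 29.1% to 45.1% at day 65 and 64.8% to 76.0% at term in the 4 WT libraries of each time, and 44.6% to 49.7% and 56.5% to 63.9% in the CF libraries. PDGFC made up 10.9% to 13.1% at day 65 and 1.57% to 3.51% at term in WT, and 14.8% to 16.8% and 0.823% to 1.99% in CF. PDGFD held 22.4% to 32.1% at WT term and 34.1% to 42.7% at CF term. The ligand sum was 19.8 to 25.4 CPM per kb at day 65, 45.7 to 54.0 at day 120 and 35.3 to 46.7 at term in WT, and 22.0 to 26.0, 42.0 to 61.0 and 56.1 to 63.1 in CF. PDGFA stands outside these shares.

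PDGFRA, the receptor of lung fibroblasts and myofibroblast precursors, peaked at day 120 in WT lung and dropped at term. WT proximal lung held 139 and 120.2 CPM at day 65, 128 and 158 at day 80, 154 and 137 at day 100, 219 and 208 at day 120 and 93.2 and 76.1 at term. WT distal lung held 130.4 and 98.6, 128 and 113, 147 and 161, 247 and 207 and 84.5 and 52.8 CPM. In both WT courses day 120 was highest and term lowest, each apart from all other times.

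CF proximal lung held 159 and 212 CPM of PDGFRA at day 65, 117 and 198 at day 80, 228 and 152 at day 100, 220.5 and 114 at day 120 and 225 and 177 at term. CF distal lung held 149 and 113, 175 and 162, 208 and 193, 177 and 167 and 175 and 124 CPM. Every pair of neighbours in the CF proximal order overlapped, and the highest and lowest means differed by 1.27-fold there and by 1.53-fold in CF distal lung, against 2.52-fold and 3.30-fold in WT.

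PDGFRA rose 1.64-fold in WT proximal (log2 fold change 0.71, SE 0.14, adjusted p = 0.00759) and 1.96-fold in WT distal lung (log2 fold change 0.97, SE 0.22, adjusted p = 0.0176) between days 65 and 120. These rises were lost without day 65 replicate 2 (adjusted p = 0.0593 in proximal and 0.104 in distal lung) or day 120 replicate 1 (0.0541 and 0.105). PDGFRA then fell 2.52-fold in WT proximal (log2 fold change -1.34, SE 0.14, adjusted p = 0.000447) and 3.35-fold in WT distal lung (log2 fold change -1.74, SE 0.23, adjusted p = 0.00176) to term, and both falls kept an adjusted p of 0.0148 or less when any single library was left out. In CF proximal lung the changes were -0.11 and 0.23, and in CF distal lung 0.44 and -0.21, over the same intervals, with adjusted p-values from 0.21 to 0.938. Both CF proximal values changed sign without day 120 replicate 2, to 0.29 (adjusted p = 0.803) and -0.17 (adjusted p = 0.826). They were -0.66 and 0.79 without replicate 1.

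PDGFRB, the pericyte and vascular mural cell receptor, was not called up to day 120 in any course with all libraries in the fit, and fell at term in WT lung. WT proximal lung held 266 and 197 CPM at day 65, 208 and 232 at day 80, 177 and 204 at day 100, 262 and 245 at day 120 and 136 and 76.7 at term. WT distal lung held 216 and 207, 205 and 209, 204 and 183, 248 and 233 and 126 and 73.7 CPM. All 4 WT term libraries lay below all 16 earlier WT libraries.

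CF proximal lung held 265 and 333 CPM of PDGFRB at day 65, 144 and 279.9 at day 80, 269.7 and 174 at day 100, 359 and 68.6 at day 120 and 185 and 219 at term. CF distal lung held 264 and 161, 281 and 313, 237 and 236, 381 and 265 and 148 and 184 CPM. The lowest of all 40 libraries was CF proximal day 120 replicate 2, and neighbours in the CF proximal order all overlapped. From day 65 to day 120 the CF proximal value was -0.44 (adjusted p = 0.812), against -2.08 (adjusted p = 0.0265) without day 120 replicate 1 and 0.31 (adjusted p = 0.804) without day 120 replicate 2.

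PDGFRB fell 2.38-fold in WT proximal (log2 fold change -1.25, SE 0.24, adjusted p = 0.00644), 2.45-fold in WT distal (log2 fold change -1.29, SE 0.21, adjusted p = 0.0038) and 1.97-fold in CF distal lung (log2 fold change -0.97, SE 0.28, adjusted p = 0.0351) from day 120 to term. The CF distal call was lost in 7 of 10 fits that left out a single library, with a value of -0.67 and an adjusted p of 0.168 without CF distal day 120 replicate 1. In CF proximal lung the change was -0.11 with a 95% interval of -1.66 to 1.43. This value turned on the unlike day 120 pair. It was -0.86 (adjusted p = 0.248) without replicate 2 and 1.53 without replicate 1. Per kb, PDGFRB was 2.33 to 2.98 times PDGFRA at WT day 65, 1.43 to 1.70 times at WT day 120 and 1.43 to 2.12 times at WT term, and 2.03 to 2.53 and 1.17 to 2.12 times at CF day 65 and term. At CF day 120 it spread from 0.856 to 3.05 times, which covers the WT range.

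**Figure D2:**
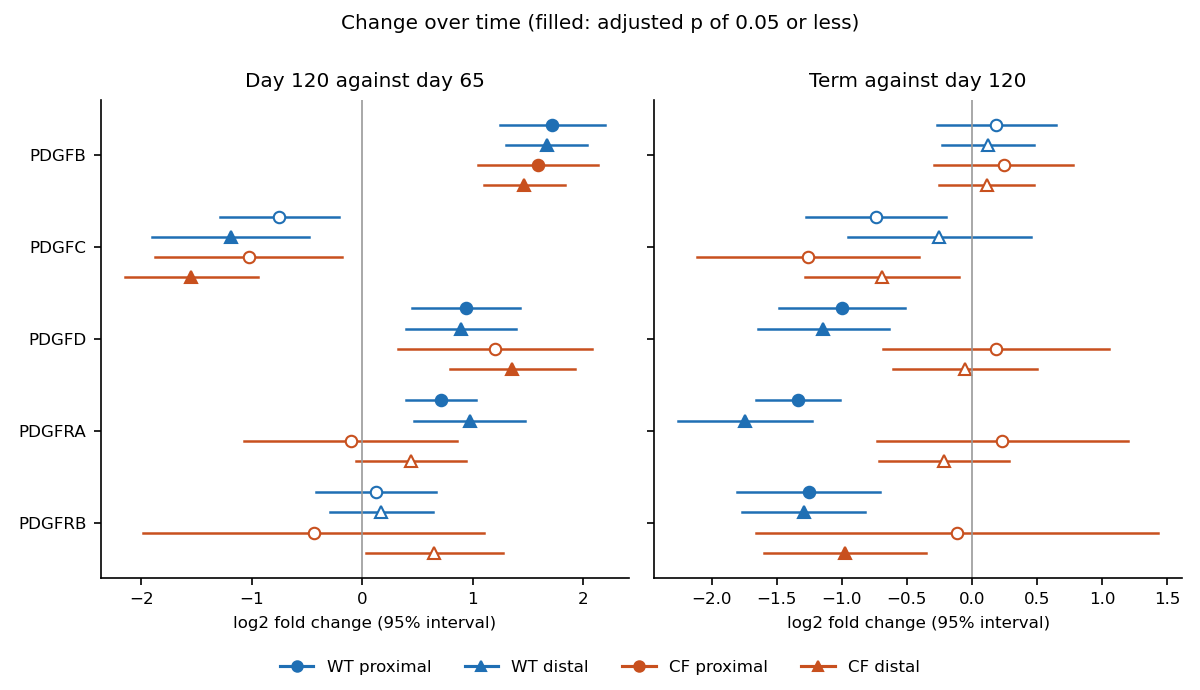
Log2 fold change of each member (horizontal axis, points with 95% intervals) between days 65 and 120 (left) and from day 120 to term (right) in the 4 courses. Filled points had an adjusted p of 0.05 or less, and the term falls of PDGFD and PDGFRA are filled in WT only, which by itself is no test of a difference between genotypes.

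Over the 5 time points together, an F test called all 5 members in WT proximal lung, where 40.8% of genes were called, and all 5 in WT distal lung, where 40.4% were. In CF proximal lung PDGFB (adjusted p = 0.00919) and PDGFC (adjusted p = 0.0444) were called, beside 5.36% of genes, and in CF distal lung PDGFB, PDGFC and PDGFD, beside 33.9%. The CF proximal calls were lost without either day 65 library for PDGFB (adjusted p = 0.063 and 0.0683) and in 7 of 10 fits without a single library for PDGFC (adjusted p = 0.169 without day 65 replicate 1), and also with the block for PDGFC (0.0755). Between days 65 and 120 the calls were 3 in WT proximal, 4 in WT distal, 1 in CF proximal and 3 in CF distal lung, beside 20.1%, 18.2%, 1.66% and 12.1% of all genes. From day 120 to term they were 3, 3, 0 and 1, beside 24.6%, 25.8%, 0.356% and 23%. In CF proximal lung at that interval 1 member had an unadjusted p under 0.05 and DESeq2 called 1, PDGFC. PDGFC in the WT proximal step from day 80 to day 100 stood beside 1.94% of genes, and PDGFB stood beside 1% in WT distal lung at that step and 0.928% in CF distal lung from day 100 to day 120. From day 100 to day 120 edgeR called 0 members in WT proximal (2.67% of genes) and 0 in WT distal lung (2.49%), where 3 and 3 had an unadjusted p under 0.05 and DESeq2 called 2 and 1, and 0 in CF proximal lung (0.0203%), with 1 and 1. From day 80 to day 100 it called 0 in CF proximal (0%) and 0 in CF distal lung (0%), each with 1 at an unadjusted p under 0.05 and 0 by DESeq2. From day 65 to day 80 it called 0 in each course, with 0 at an unadjusted p under 0.05 and 0 by DESeq2, beside 0.011%, 0.0164%, 0% and 0% of genes.

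Before term CF and WT lungs were compared over days 65 to 120 together and at each day. In the mean in distal lung, PDGFB was 1.27-fold (log2 difference 0.34, SE 0.08, adjusted p = 0.00486) and PDGFC 1.37-fold (log2 difference 0.46, SE 0.14, adjusted p = 0.0253) higher in CF, 2 of 5 members where 32.3% of genes were called, a share near the background. The PDGFC call was lost in 10 of 20 fits without a single library (0.37, adjusted p = 0.0756 without WT distal day 120 replicate 1) and with the WT day 100 libraries summed (adjusted p = 0.058). PDGFD, PDGFRA and PDGFRB had differences of -0.20, 0.16 and 0.31, the last with an adjusted p of 0.0755. In proximal lung edgeR called 0 of 5, beside 20.6% of genes, with 0 at an unadjusted p under 0.05 and 0 by DESeq2, and the differences ran from -0.31 for PDGFD to 0.26 for PDGFC. Without CF proximal day 120 replicate 1 the PDGFD difference there was -0.45, and without replicate 2 it was -0.21. Smooth muscle markers were higher in CF over the same days. In distal lung the pericyte marker sums were also higher in CF at each day, without overlap. At day 65 they were 388 to 455 CPM in CF and 319 to 334 in WT. Endothelial sums there were likewise higher except at day 100, where 1539 to 1763 CPM in CF overlapped 1518 to 1567 in WT. In proximal lung pericyte sums were higher without overlap before day 120, and endothelial sums at days 65 and 100 only. The part of these markers in these differences was not tested.

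At single prenatal days, PDGFB in distal lung at day 65 was the 1 member called (log2 difference 0.64, SE 0.16, adjusted p = 0.0338), beside 5.23% of genes. In these libraries the endothelial markers summed to 1479 to 1616 CPM in CF and 1129 to 1306 in WT, and their part was not tested. PDGFB equalled 2.44% and 2.71% of that sum in CF and 2.04% and 2.14% in WT. Its CF libraries held 39.4 and 40.1 CPM against 23.0 and 27.9 in WT. The libraries did not overlap, but the call was lost in 10 of 20 fits without a single library (0.51, adjusted p = 0.236 without WT distal day 65 replicate 1) and with the WT day 100 libraries summed (adjusted p = 0.0506). In the other 7 comparisons before term (day 65 in proximal lung and days 80, 100 and 120 in both regions) neither edgeR nor DESeq2 called a member, and 4 member values, all in distal lung, had an unadjusted p under 0.05. The shares of genes called were 0.167%, 0.0885%, 0.383% and 1.35% at days 65, 80, 100 and 120 in proximal lung, and 5.92%, 5.3% and 4.38% at days 80, 100 and 120 in distal lung. At day 120 in CF proximal lung the PDGFRB libraries disagreed most, and with replicate 1 left out, so that replicate 2 stood alone, the PDGFRB log2 difference was -1.88 (adjusted p = 0.00612), compared with -0.24 (adjusted p = 0.856) with both and 0.50 (adjusted p = 0.565) without replicate 2.

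At term the libraries of 3 members lay higher in CF, where 6.09% of genes were called in proximal and 15.2% in distal lung. PDGFRA held 124 to 225 CPM in the 4 CF libraries and 52.8 to 93.2 in the 4 WT libraries, PDGFD 83.5 to 104 and 39.7 to 54.0, and PDGFRB 148 to 219 and 73.7 to 136. None of these ranges overlapped between genotypes, although proximal and distal libraries of an animal are not independent. How many of all genes were likewise apart was not counted, so the separation cannot be read as particular to these members. PDGFB (98.9 to 121 and 77.8 to 111 CPM) and PDGFC (4.78 to 11.6 and 7.55 to 12.8 CPM) overlapped. The PDGFC difference in proximal lung was -0.44 (edgeR quasi-likelihood test, adjusted p = 0.487), and -1.09 without CF proximal term replicate 1.

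In distal lung at term PDGFD was 2.32-fold (log2 difference 1.22, SE 0.24, adjusted p = 0.00436) and PDGFRA 2.22-fold (log2 difference 1.15, SE 0.23, adjusted p = 0.00443) higher in CF, 2 of 5 members. PDGFRB had a log2 difference of 0.77, SE 0.25, adjusted p = 0.0544, and a value of 1.17 without WT distal term replicate 1. It passed with DESeq2 (adjusted p = 0.0257), bias-adjusted quasi-likelihood (0.0433) and the replicate number as a block (0.80, adjusted p = 0.0287). It did not pass with RLE scaling, thinned to equal depth or without the filter, and same-numbered libraries do not pair by label. The PDGFD difference kept an adjusted p of 0.0439 or less without any single library, and that of PDGFRA was 0.82 with an adjusted p of 0.0526 without WT distal term replicate 2. In proximal lung at term PDGFRA was 2.38-fold higher (log2 difference 1.25, SE 0.33, adjusted p = 0.038), 1 of 5 members, but the call was lost in 14 of 20 fits without a single library (1.11, adjusted p = 0.271 without WT proximal term replicate 2) and with the WT day 100 libraries summed (adjusted p = 0.0555). PDGFD and PDGFRB had proximal differences of 1.00 (adjusted p = 0.0927, or 0.0292 without CF proximal day 120 replicate 2) and 0.92 (adjusted p = 0.38). WT term lambs had been born naturally, and the part of birth in these differences was not tested.

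The change itself was compared between genotypes. From day 120 to term in distal lung PDGFRA had log2 changes of -1.74 (WT) and -0.21 (CF), and their difference passed the test (log2 difference 1.54, SE 0.32, adjusted p = 0.00981), 1 of 5 members beside 9.31% of genes. Without WT distal day 120 replicate 1 it was 1.39 with an adjusted p of 0.0525. PDGFD differed by 1.10 in distal lung (adjusted p = 0.0515). It passed with DESeq2 (adjusted p = 0.0194), thinned to equal depth (0.0467) and with the block (0.038), whose numbers do not pair by label. It did not pass with RLE scaling, bias-adjusted quasi-likelihood or without the filter. In proximal lung PDGFRA differed by 1.6 (adjusted p = 0.101) and PDGFD by 1.22 (adjusted p = 0.217), so 0 of 5 were called by edgeR, beside 1.78% of genes, with 2 at an unadjusted p under 0.05 and 1, PDGFRA, called by DESeq2. PDGFB differed by 0.08 and -0.01 in proximal and distal lung, with 95% intervals of -0.57 to 0.74 and -0.49 to 0.48. For the change from day 65 to day 120 edgeR called 0 members and 0% of genes in each region. DESeq2 also called 0, and 0 members had an unadjusted p under 0.05. In proximal lung the PDGFRA and PDGFRB values were -1.42 and -2.25 without CF proximal day 120 replicate 1, which leaves the outlying library alone. Without replicate 2 they were -0.46 and 0.14.

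**Figure D3:**
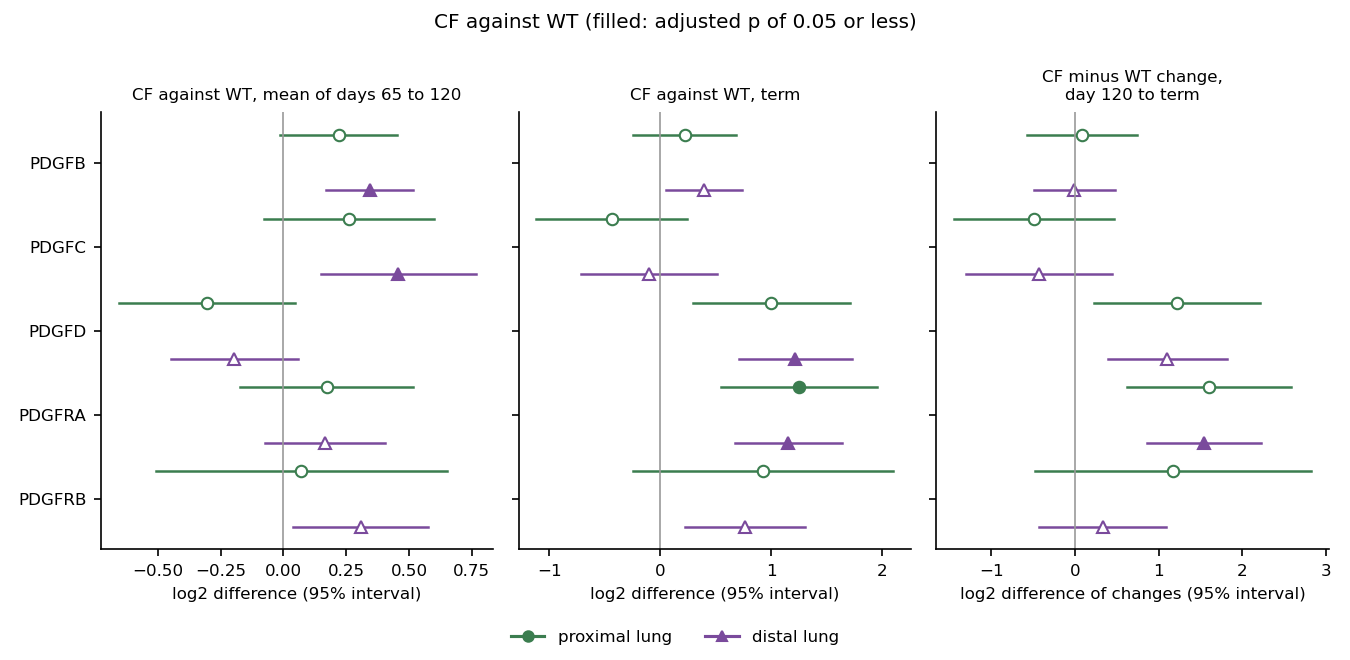
CF minus WT log2 difference of each member (horizontal axis, points with 95% intervals, circles proximal, triangles distal) averaged over days 65 to 120, at term, and for the change from day 120 to term. Filled points had an adjusted p of 0.05 or less, and at term PDGFD, PDGFRA and PDGFRB are all positive in both regions, with PDGFD filled in distal lung, PDGFRA in both and PDGFRB in neither.

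No difference between proximal and distal lung passed the test in these genes. Over the 5 time points the distal minus proximal log2 differences of the members ran from -0.18 to 0.14, with 95% intervals reaching from -0.48 to 0.49. In 13 regional comparisons edgeR called 0 of 65 member values, with 0 at an unadjusted p under 0.05 and 0 by DESeq2. That fit did not use the pairing of regions within an animal. With so few genes of any kind called, 0 calls say little about these members. The background was 0.00481% of genes in the WT mean and 0.00963% in the CF mean, and 0 genes in each single condition, where 162 to 1081 genes had an unadjusted p under 0.05. With CF proximal day 120 replicate 1 left out, PDGFRB was 2.24 higher on the log2 scale in distal lung at CF day 120 (adjusted p = 0.000519), a comparison with the lone outlying library. Without replicate 2 the same difference was -0.15 (adjusted p = 1). In the separate fit of the 20 proximal libraries, leaving out replicate 1 also called the differences in change from day 120 to term of PDGFD (1.78, adjusted p = 0.0138), PDGFRA (2.15, adjusted p = 0.00557) and PDGFRB (2.81, adjusted p = 0.00457) between CF and WT. Without replicate 2 none of these 3 was called, and the PDGFRB value was 0.41 (adjusted p = 0.725).

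Partner genes of the pathway, 34 in all, were followed beside the members. In WT proximal lung 17 of 34 were called from day 120 to term, 5 higher and 12 lower, and in WT distal lung 14 of 34, 3 higher and 11 lower, beside 24.6% and 25.8% of all genes. Of the 18 genes that bind the receptor or act next, such as adaptors and PI 3-kinase subunits, 9 were lower and 1 higher in proximal and 9 lower and 0 higher in distal lung, with median changes of -0.48 and -0.54 against 0.06 and 0.04 over all genes. PTPRJ, a receptor-type phosphatase that removes phosphate from PDGFRB, rose in WT proximal (1.97, SE 0.17, adjusted p = 0.000175) and distal lung (1.68, SE 0.14, adjusted p = 0.000271). ST14, the protease matriptase that can release active PDGFD, rose in WT proximal (1.5, SE 0.22, adjusted p = 0.00192) and distal lung (1.51, SE 0.14, adjusted p = 0.000426). NHERF1, a PDZ scaffold that binds PDGF receptors and is listed as SLC9A3R1, rose in proximal (1.41, SE 0.29, adjusted p = 0.00829) and distal lung (1.61, SE 0.38, adjusted p = 0.0169), and CBLB, a ubiquitin ligase that sends receptors for degradation, fell in proximal (-1.24, SE 0.12, adjusted p = 0.000271) and distal lung (-1.37, SE 0.16, adjusted p = 0.00111).

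In CF distal lung 8 of 34 pathway genes were called over the same interval, 2 higher and 6 lower, near the 23% of all genes. The largest changes were in the adaptor SHC1 (-1.47, SE 0.34, adjusted p = 0.0182) and LRP1, an endocytic partner of PDGFRB (-1.46, SE 0.36, adjusted p = 0.023). In CF proximal lung edgeR called 0 of 34, beside 0.356% of all genes, with 2 at an unadjusted p under 0.05 and 0 by DESeq2. The genotypes differed at term in 10 of 34 genes in distal lung, 5 higher and 5 lower in CF, and in 5 of 34 in proximal lung, 2 higher and 3 lower, beside 15.2% and 6.09% of all genes. PTPRJ was lower in CF at term in distal (-1.41, SE 0.19, adjusted p = 0.00044) and proximal lung (-1.76, SE 0.20, adjusted p = 0.000363). NHERF1 was lower in CF distal lung (-1.20, SE 0.31, adjusted p = 0.0177, listed as SLC9A3R1), and PIK3CB, a catalytic PI 3-kinase subunit, in CF proximal lung (-1.31, SE 0.36, adjusted p = 0.0476). PLAT, the tissue plasminogen activator that can release active PDGFC, was higher in CF in proximal (1.06, SE 0.25, adjusted p = 0.0251) and distal lung (0.99, SE 0.20, adjusted p = 0.00551). FURIN, a convertase that processes growth factor precursors, was lower in CF distal lung (-1.13, SE 0.36, adjusted p = 0.048). PLCG1, a phospholipase recruited by the receptors, was higher in CF distal lung at term (1.19, SE 0.25, adjusted p = 0.00676) and over days 65 to 120 (0.81, SE 0.13, adjusted p = 0.000248).

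Before term, 8 of 34 pathway genes differed between genotypes in the distal mean of days 65 to 120 (5 higher, 3 lower in CF) and 4 of 34 in the proximal mean (3 higher, 1 lower), beside 32.3% and 20.6% of all genes, so both shares lay below the background. The largest was PLCG1 in both, with 0.71, SE 0.19, adjusted p = 0.0162 in the proximal mean. ST14 was higher in CF in both (0.64, SE 0.08, adjusted p = 2.76e-05 in distal and 0.71, SE 0.14, adjusted p = 0.00352 in proximal lung), and NCK1, an adaptor, was lower in both (-0.41, SE 0.09, adjusted p = 0.00349 and -0.53, SE 0.14, adjusted p = 0.015). Between days 65 and 120, 12 of 34 were called in WT proximal lung (9 higher), 8 in WT distal (5 higher) and 7 in CF distal lung (5 higher), beside 20.1%, 18.2% and 12.1% of all genes. The count by edgeR was 0 of 34 in CF proximal lung, beside 1.66%, where 5 had an unadjusted p under 0.05 and DESeq2 called 1. The largest rises were those of PDGFRL, a secreted receptor-like protein, in WT proximal lung (1.86, SE 0.49, adjusted p = 0.0271), of SOCS3, a feedback inhibitor of cytokine signals, in WT distal lung (2.20, SE 0.34, adjusted p = 0.00326) and of PIK3CB in CF distal lung (1.87, SE 0.39, adjusted p = 0.0168). PLAU, the urokinase that can release active PDGFD, rose in WT proximal (1.77, SE 0.38, adjusted p = 0.0105) and WT distal lung (1.64, SE 0.30, adjusted p = 0.0066), as did SOCS3 in WT proximal lung (1.70, SE 0.45, adjusted p = 0.0274). NRP1, a co-receptor, rose in WT proximal (1.35, SE 0.15, adjusted p = 0.000448), WT distal (1.47, SE 0.18, adjusted p = 0.00109) and CF distal lung (1.61, SE 0.20, adjusted p = 0.00204). PLAT fell in WT proximal (-1.15, SE 0.18, adjusted p = 0.00236), WT distal (-0.94, SE 0.15, adjusted p = 0.00395) and CF distal lung (-1.02, SE 0.23, adjusted p = 0.0203).

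Markers of the cells that make and receive PDGF moved as well. The 11 endothelial markers summed to 1129 to 1336 CPM at day 65, 2172 to 2604 at day 120 and 1468 to 2202 at term in WT, and to 1475 to 1616, 2076 to 2958 and 2197 to 2666 in CF. Between days 65 and 120, 7, 9, 1 and 8 of 11 rose in WT proximal, WT distal, CF proximal and CF distal lung, beside 10.7%, 9.92%, 1.05% and 7.1% of all genes. For CF proximal lung 7 of 11 had an unadjusted p under 0.05 and DESeq2 called 5. The median log2 change of the 11 was 0.98 there, beside 0.04 over all genes, and 0.86, 0.92 and 1.06 in WT proximal, WT distal and CF distal lung. None of the 11 was at 0 in any library.

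PDGFB took a larger share of these markers' sum at later times. Its CPM equalled 1.73% to 2.27% of the endothelial sum at WT day 65, 3.22% to 3.62% at day 120 and 5.02% to 5.36% at term, and 1.98% to 2.71%, 3.32% to 4.05% and 3.89% to 5.12% in CF. The ranges of day 65 and term were apart in both genotypes. At term in WT lung 3 of 11 endothelial markers fell in proximal and 5 in distal lung, while PDGFB was not called.

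PDGFRB was set beside the pericyte markers. The 10 pericyte markers found in the table summed to 314 to 359 CPM at WT day 65, 739 to 855 at day 120 and 369 to 570.2 at term, and to 388 to 523, 701 to 1146 and 882 to 1028 in CF, with none at 0. From day 65 to day 120, 8 of 10 rose in WT proximal, 9 in WT distal, 1 in CF proximal and 7 in CF distal lung, beside the same shares of all genes as above, while PDGFRB was called in none of these courses. For CF proximal lung 7 of 10 had an unadjusted p under 0.05 and DESeq2 called 4, with a median log2 change of 1.24. PDGFRB CPM equalled 62.7% to 74.2% of the pericyte sum at day 65, 29.5% to 31.5% at day 120 and 18.8% to 23.9% at term in WT, and 41.4% to 63.6%, 9.78% to 33.2% and 16.8% to 22.7% in CF. At term 1 of 10 pericyte markers rose and 3 fell in WT proximal lung, and 0 rose and 5 fell in WT distal lung, beside 13.5% higher and 11.1% lower of all genes in proximal and 13.5% and 12.3% in distal lung. In CF distal lung 2 rose and 3 fell, beside 11.5% and 11.5%, and in CF proximal lung edgeR called 0, with 4 at an unadjusted p under 0.05 and 1 by DESeq2, beside 0.0762% and 0.279%. At term the pericyte sums of CF and WT did not overlap, CF being higher as for PDGFRB. Of the 10 markers 1 was higher in CF in proximal and 5 in distal lung, and of the 11 endothelial markers 1 and 4, with none lower, beside 2.6% and 7.65% of all genes. The part of these markers in the term differences of the members was not tested.

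**Figure D4:**
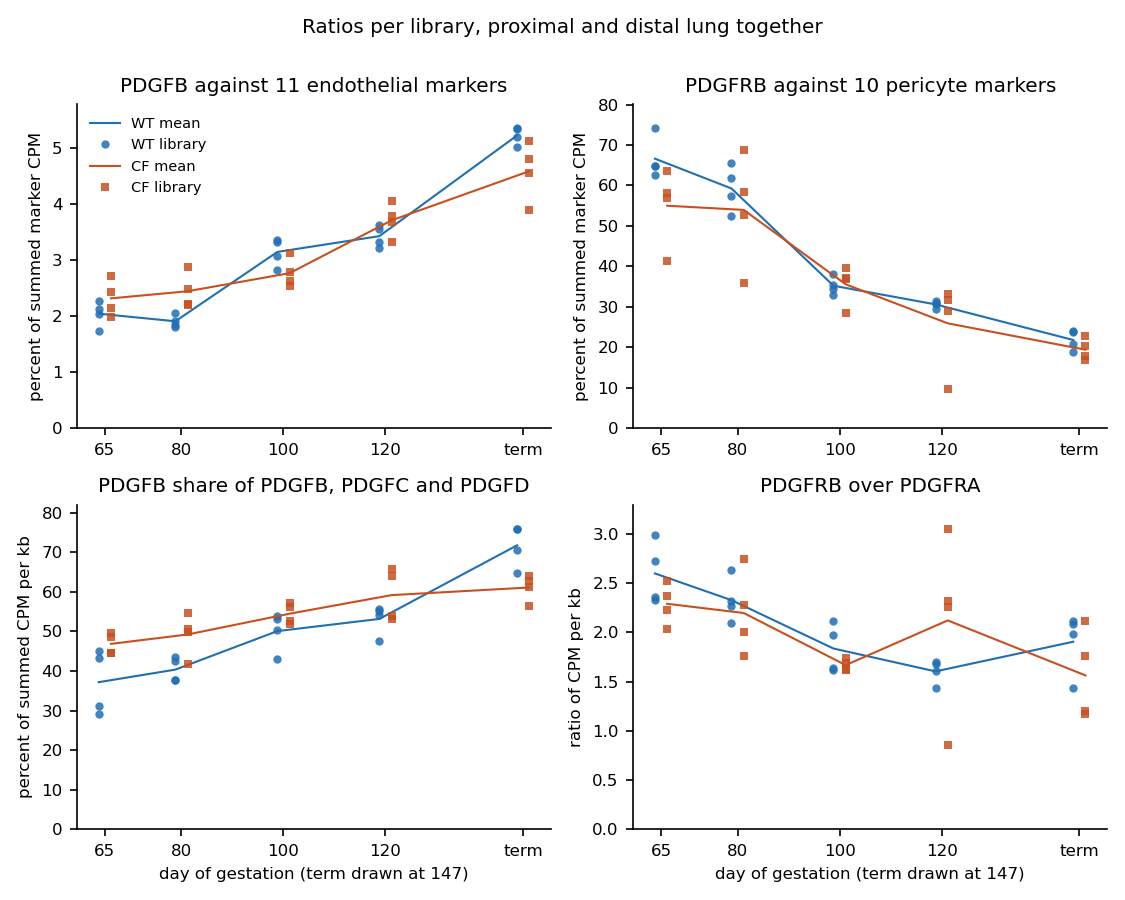
PDGFB as a percent of the summed CPM of 11 endothelial markers, PDGFRB as a percent of that of 10 pericyte markers, PDGFB as a percent of the 3 measured ligands and PDGFRB over PDGFRA, the last 2 in CPM per kb, against day of gestation (term drawn at 147). Points are single libraries of both regions (4 per genotype and time), lines join means, and at term all libraries sit above day 65 for PDGFB and below it for PDGFRB against their markers.

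Other cell types moved beside the term results, and their part in them was not tested. The shares of all genes called higher and lower, given above for each course from day 120 to term, are the background of the counts over that interval. For CF against WT at term 2.6% were higher and 3.49% lower in proximal lung, and 7.65% and 7.57% in distal lung. The 12 fibroblast markers summed to 10211 to 14645 CPM at WT day 120 and 4479 to 7706 at term, with 6 and 5 of 12 lower and none higher in proximal and distal lung. In CF they summed to 9765 to 14500.1 and 4412 to 10267 CPM. PDGFRA equalled 0.882% to 1.70% of the fibroblast sum at WT term and 1.86% to 3.09% at CF term, ranges that did not overlap. At term 3 of 12 fibroblast markers were higher and none lower in CF than in WT in each region. Macrophage markers (9 in the table) summed to 107 to 132 CPM at WT day 120 and 999 to 2082 at term, with 9 of 9 higher in both regions, and to 90.3 to 151 and 299.7 to 489 in CF, with 8 of 9 higher in distal lung and, in proximal lung, 0 called by edgeR, 8 at an unadjusted p under 0.05 and 7 by DESeq2.

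Smooth muscle markers, 9 in the table, were higher in CF before term. They summed to 1254 to 1515, 754 to 1174, 1077 to 1399 and 1366 to 1744 CPM at days 65, 80, 100 and 120 in CF and to 414 to 566, 365 to 416, 776 to 874 and 579 to 921 in WT, without overlap. In the mean of days 65 to 120, 8 of 9 were higher in CF in proximal and 7 of 9 in distal lung, beside 13.8% and 18.6% of all genes, and none lower. At term they summed to 680.4 to 1127 CPM in WT and 410.4 to 701 in CF, with 1 higher and 3 lower in CF in proximal and 5 lower in distal lung. In CF distal lung 6 of 9 fell from day 120, and in CF proximal lung 2 of 9. The 10 cell cycle markers summed to 158 to 344 CPM at WT term and 41.9 to 61.8 at CF term, and 10 of 10 and 9 of 10 were lower in CF in proximal and distal lung. Of 10 epithelial markers 9 rose from day 120 to term in WT proximal, 6 in WT distal and 6 in CF distal lung. The count by edgeR was 0 in CF proximal lung, with 2 at an unadjusted p under 0.05 and 1 by DESeq2. Its sums of 1143 to 1883 CPM at day 120 and 1462 to 3752 at term overlapped. Platelet markers, another source of PDGFB protein, stayed between 16.2 and 43.4 CPM over all 40 libraries, with up to 2 of 7 at 0, and edgeR called 0 in any course over either interval, with up to 2 at an unadjusted p under 0.05 and up to 1 by DESeq2 in a course. Cartilage markers fell by day 120, 6 of the 8 or 9 tested in WT proximal, WT distal and CF distal lung, beside 9.38%, 8.24% and 5.01% of all genes. In WT their sum was 583 to 714 CPM at day 65 and 37.6 to 66.8 at day 120. In CF it was 739 to 877 and 49.1 to 165 CPM, with the 165 in CF proximal replicate 2. Mesothelial markers stayed between 1.02 and 22.5 CPM.

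The genes most like each member over the 40 libraries were found among 13709 genes by Pearson's r of log2 CPM, as a description in which the libraries share animals, sequencing depth and developmental time. PDGFB was closest to ESAM (r = 0.972), MAN1C1 (0.959) and PECAM1 (0.956), of which ESAM and PECAM1 encode endothelial adhesion proteins. PDGFC was closest to LOC101102992, which RefSeq lists as COL9A1 (0.921), ADGRB2 (0.918) and CHST10 (0.916). PDGFD was closest to PLCB1 (0.865), SPARCL1 (0.859) and EMCN (0.831), PDGFRA to FILIP1 (0.825), MAP4K5 (0.823) and COL6A3 (0.823), and PDGFRB to ZNF521 (0.934), CEP170 (0.914) and NEDD4 (0.911). The r with MAP4K5 was 0.923 over the 20 WT and 0.556 over the 20 CF libraries.

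Between members, r was -0.84 for PDGFB and PDGFC and 0.745 for PDGFRA and PDGFRB over the 40 libraries. It was 0.691 for PDGFB and PDGFD, with 0.470 in WT and 0.912 in CF libraries, and 0.434 for PDGFD and PDGFRA, with 0.705 in WT and 0.242 in CF. PDGFB and its receptor gene PDGFRB had an r of -0.255, and PDGFC and PDGFRA one of 0.0633. Of the genes searched, 99.6% had a lower r with PDGFRA than PDGFRB had. For PDGFB, 91.3% had a lower r than PDGFD, 33.6% than PDGFRB and 1.97% than PDGFC. With PDGFD 88.7% had a lower r than PDGFRA, and with PDGFC 53.7%.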

How the data were processed

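Lung RNA of 40 libraries was sequenced and the authors deposited raw gene counts, made with STAR (2.6) and featureCounts (1.6.3) per the submitters' processing notes, with exons of Oar_v4.0 genes as features. Totals ranged from 24670355 to 126749480 counts, and a table that repeated the CF columns was not used. The 6 PDGF genes, the pathway list and the marker lists were chosen with earlier results of these data known. Genes named beyond the members were up to 4 called pathway genes with the largest changes in a comparison and the 3 genes most alike each member by r of log2 CPM, and lists were given by counts.

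Counts were filtered with filterByExpr (count minimum 10, total minimum 15), scaled by TMM and tested with edgeR's quasi-likelihood test (edgeR 4.0.16, limma 3.58.1, R 4.3.3). Fits held 10 libraries for each of 4 time courses, 20 for each region and 40 for the comparison of regions, and p-values were adjusted by the Benjamini-Hochberg method over all genes of a comparison, with 0.05 as the limit. The scripts were tested on simulated data.

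Alternatives were RLE scaling, DESeq2 (1.42.0), bias-adjusted quasi-likelihood, glmTreat, no filter, thinning to equal depth, the replicate number (or the animal, between regions) as a block, the WT day 100 libraries summed, the study's limits (an adjusted p up to 0.001 with a log2 fold change of 0.58 or larger), removal of a gene length trend and each library left out. Same-numbered libraries of different genotypes or times are not paired by label. The r of their deviations was above 0.1 in 5 of 10 and 17 of 40 pairs. It ran from -0.251 to 0.403 and from -0.749 to 0.833, ranges that overlap that of the animal pairs. Proximal and distal samples of an animal were paired per the labels, and r was above 0.1 in 7 of 10 pairs, from -0.474 to 0.853. The WT day 100 replicates carry the same animal label. They differed by more than sampling noise and were kept as 2 libraries, but the distal pair was the closest of all, at a chi-square of 6.98 per gene against 40.7 for the proximal pair and 19.5 to 1850 in the other 18 conditions, and they may come from 1 animal.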

Additional observations from a re-analysis of the deposited data

Results flagged for a closer look

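The difference between CF and WT in the distal lung change of PDGFRA from day 120 to term was 1.54 on the log2 scale. It drew attention because the same change was measured in both genotypes and the difference between them passed its own test (edgeR quasi-likelihood test, SE 0.32, adjusted p = 0.00981, 95% interval 0.86 to 2.22). PDGFRA changed by -1.74 in WT and by -0.21 in CF. With WT distal day 120 replicate 1 left out the difference was 1.39 (adjusted p = 0.0525). Genotype cannot be told apart from cloning, and WT term lambs had been born naturally. WT distal depth rose from 24670355 and 40601998 counts at day 120 to 115937437 and 126749480 at term. CF distal depth rose from 86480033 and 94449264 to 117558311 and 119451372. The difference cannot be told apart from the larger step in WT depth.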

How the results depend on the processing

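Of 265 member values 43 were called, 24 of them without each single library in turn as well, and no called value changed sign in any alternative. Calls over the 5 time points numbered 15 of 20, or 4 with the study's limits. Calls between neighbouring times numbered 10 of 80, or 21 with DESeq2, 4 with glmTreat and 1 with the study's limits. Between days 65 and 120 they numbered 11 of 20, or 5 with glmTreat and 2 with the study's limits. For CF against WT, the mean of days 65 to 120 gave 2 of 10 (0 with glmTreat and with the study's limits, 1 with the WT day 100 libraries summed) and single times gave 4 of 50 (1 with glmTreat, 0 with the study's limits, 2 with those libraries summed). Differences in change gave 1 of 20 (3 with DESeq2, 2 when thinned to equal depth, 0 with the study's limits). The glmTreat test asks for a larger change and the study's limits are stricter by construction. The cause of the other shifts was not tested. Leaving out single libraries gave 13 to 16, 8 to 12, 8 to 12, 1 to 3, 3 to 6 and 0 to 6 calls in these families, 0 for regions averaged over time and 0 to 1 for regions at single times. The 6 came without CF proximal day 120 replicate 1. With the replicate number as a block the families gave 14, 9, 10, 2, 5 and 2 calls. The animal as a block gave 0 regional calls. Same-numbered libraries do not pair by label except between regions. With 2 libraries per condition, an uncalled value does not show that levels were alike.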
